A study of Caenorhabditis elegans with 24 samples.

Results

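The metallothionein genes mtl-1 and mtl-2 and the cadmium-responsive genes cdr-1 to cdr-7 of Caenorhabditis elegans were followed through whole adult animals that differed in age and in the genes ceh-60 and pqm-1. They were taken as the rows of both gene count tables that carry the WormBase identifiers of these genes, which gave 9 of 46778 genes. Of these, 8 were matched by the symbol itself. No row is listed under the symbol cdr-5, and hrg-2, the present name of that gene, was used for it. In each fit 8 of the 9 genes passed the filter on low counts, and cdr-3 did not.

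The study profiled mRNA of whole animals in 24 libraries, with 3 libraries in each of 8 groups. The first table held wild-type N2 and strain DLS357, which carries ceh-60(ok1485), each on day 1 and on day 4 of adulthood. The second table held 4 strains on day 1 of adulthood: DLS421 with pqm-1(ok485), DLS424 with pqm-1(rhd90), DLS420 with ceh-60(ok1485) and pqm-1(ok485), and DLS423 with ceh-60(ok1485) and pqm-1(rhd90). Animals of the first table were synchronized and fed Escherichia coli OP50, and day 4 animals were moved to new plates daily; no growth conditions are given in the labels for the second. Each mutant genotype was a single strain with alleles present in every tissue, wild type was measured only in the first table and the pqm-1 mutants only in the second, and no label tells if the 3 libraries of a group came from independent cultures. The p-values therefore cover the spread between these libraries, which may be technical. In whole animals, fewer cells of a type and less RNA per cell cannot be told apart.

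Metallothioneins are small cysteine-rich proteins that bind cadmium, zinc and copper and are induced by excess metal, in C. elegans mainly in the intestine. The cdr genes encode a family of related proteins named after cdr-1, an intestinal gene switched on by cadmium whose product lies in lysosomal membranes; some members respond to cadmium or other stresses and others do not, and hrg-2 is a heme-binding member of the hypodermis that is induced when heme is scarce. CEH-60 is a homeodomain protein of the PBX family that acts in the intestine, PQM-1 is a zinc finger protein that acts on stress and intestinal genes, and mtl-1 is a standard reporter of the insulin-regulated factor DAF-16.

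Total counts ran from 18809461 to 32598349 per library. Levels are given as CPM, read counts scaled to the size of each library, with a single scaling of all 24 libraries, and tests were edgeR quasi-likelihood fits over all genes with Benjamini-Hochberg adjustment, called at an adjusted p under 0.05. The ceh-60 transcript averaged 6.12 ± 0.688 CPM (SD, n = 3) in wild type on day 1 and 1.36 ± 0.43 CPM in the single mutant, and it averaged 1.33 ± 0.0952 and 1.58 ± 0.416 CPM in the ok485 and rhd90 double mutants. The pqm-1 transcript averaged 10.9 ± 0.359 CPM in wild type on day 1, 5.96 ± 0.243 CPM in pqm-1(ok485) and 14.9 ± 1.09 CPM in pqm-1(rhd90). Where the lesions of these alleles lie relative to the counted exons is not given in the sources used here. In the second table the library numbered 1 stood apart from libraries 2 and 3 in all 4 groups for several of the genes described here, as given below.

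All 9 genes lie on chromosome V of the WS260 annotation and are protein coding. The genes cdr-4, hrg-2, cdr-7, cdr-6, cdr-2 and cdr-3 follow each other in this order on the minus strand, from 12407428 to 12417377, a span of 9950 bases with no other gene of the table inside it. The gaps between them were 776, 365, 414, 941 and 648 bases. The other 3 genes are apart: mtl-1 is at 6691371 to 6691863 and mtl-2 at 14018270 to 14018673, both on the minus strand with 2 exons, and cdr-1 is at 15921309 to 15922818 on the plus strand with 6 exons. No exon of the 9 genes overlapped an exon of another gene.

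Both metallothionein genes rose with age in wild type. mtl-1 stood at 0.0851, 0.344 and 0.0473 CPM in the 3 wild-type libraries of day 1 and at 19.6, 24.6 and 41 CPM in those of day 4. mtl-2 stood at 1.91, 2.32 and 2.84 CPM on day 1 and at 15, 14.4 and 11.7 CPM on day 4. For both genes each day 4 library was above each day 1 library. The mtl-1 difference rested on 11 counts in all on day 1 against 2382 on day 4, a ratio of 172 after scaling, with an exact binomial 95% interval of 96 to 345 that covers counting error only. The fitted log2 fold change of mtl-1 was 7.40 ± 0.51 (SE, adjusted p = 1.04e-07), and it was 8.62 without wild-type library 2 of day 1, which held 8 of the 11 counts. That of mtl-2 was 2.53 ± 0.19 (adjusted p = 1.8e-07), or 5.78-fold.

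With age 5 of the 8 tested genes rose in wild type and 1 fell, where 54.8% of all 13137 genes tested were called in either direction. The median log2 fold change was 1.03 over the 8 genes and 0.02 over all genes. Beside the metallothioneins, cdr-2, which lies in the cluster, rose from 8.64, 9.76 and 7.95 CPM to 20.2, 28.8 and 26.5 CPM. cdr-4 of the same cluster, which responds to cadmium and to other stresses, rose from 12.8, 13.5 and 11.7 CPM to 42.4, 31.4 and 44.4 CPM. The ages did not overlap for either gene, and their log2 fold changes were 1.51 ± 0.14 and 1.62 ± 0.20. The rise of cdr-7 was 0.55 ± 0.17 (adjusted p = 0.0168) and was not called without wild-type library 1 of day 1 (adjusted p = 0.0766) or library 1 of day 4 (0.0817). hrg-2 fell from 0.766, 0.817 and 0.662 CPM to 0.154, 0.232 and 0.159 CPM, a log2 fold change of -2.0 ± 0.47 (adjusted p = 0.0029). cdr-1 (0.12 ± 0.35) and cdr-6 (-0.03 ± 0.06) did not pass.

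**Figure D1:**
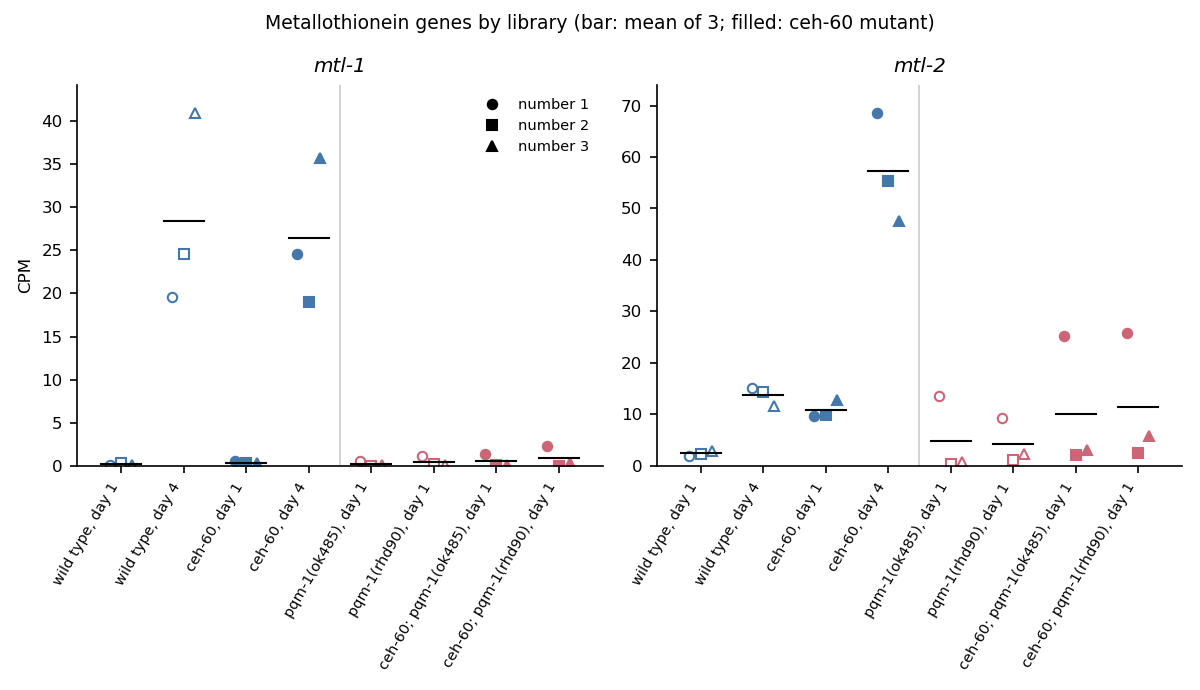
Level of mtl-1 and mtl-2 in CPM (vertical axis, linear) in each library of the 8 groups (horizontal axis); symbols give the replicate number, bars the mean of 3 libraries, filled symbols ceh-60 mutants, and the grey line separates the tables. mtl-1 reached 19.6 to 41 CPM in wild type on day 4 against 0.0473 to 0.344 CPM on day 1, while in the second table the library numbered 1 was the highest of each group for both genes.

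The ceh-60 mutant had more mtl-2, cdr-1, cdr-2 and cdr-4 RNA than wild type on day 1 of adulthood, but no called difference in mtl-1. Of the 8 tested genes 4 were called, each of them higher, against 25.5% of all genes called in either direction, and the median log2 fold change was 1.46 over the 8 genes and -0.03 over all genes. mtl-2 stood at 9.7, 9.91 and 12.7 CPM in the mutant, above each wild-type value given before (log2 fold change 2.16 ± 0.19, adjusted p = 3.42e-06). mtl-1 stood at 0.502, 0.251 and 0.287 CPM in the mutant, from 24 counts, and overlapped wild type (1.06 ± 1.05, adjusted p = 0.471). Whether the effects on mtl-1 and mtl-2 differ was not tested.

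cdr-4 had the largest change of the 8 genes on day 1. It stood at 140, 127 and 101 CPM in the mutant against 12.8, 13.5 and 11.7 CPM in wild type, so that the lowest mutant library was far above the highest wild-type library. This was a log2 fold change of 3.25 ± 0.20 (adjusted p = 1.37e-07), or 9.49-fold. cdr-2 stood at 46.1, 39.4 and 33.6 CPM in the mutant, again with no overlap, and its log2 fold change was 2.15 ± 0.14 (adjusted p = 3.04e-07). cdr-1, the founding member of the family, was low in both groups, at 0.425, 0.516 and 0.615 CPM in wild type and 2.47, 1.09 and 2.25 CPM in the mutant. Its libraries did not overlap either, and its log2 fold change was 1.86 ± 0.32 (adjusted p = 0.000925). These 4 calls were kept when any 1 of the 6 libraries compared was left out.

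No other tested gene of the cluster was called on day 1, and cdr-3 was not tested. cdr-6 stood at 28.7, 25.8 and 29.1 CPM in wild type and at 32.6, 30.7 and 31.6 CPM in the mutant, a log2 fold change of 0.16 ± 0.06 that did not pass (adjusted p = 0.069) although the libraries did not overlap. cdr-7 (0.23 ± 0.18, adjusted p = 0.35) and hrg-2 (-0.45 ± 0.42, adjusted p = 0.438) overlapped between the groups. cdr-4 and cdr-2 lie on either side of hrg-2, cdr-7 and cdr-6, so the 3 genes without a call lay between the 2 that were called.

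**Figure D2:**
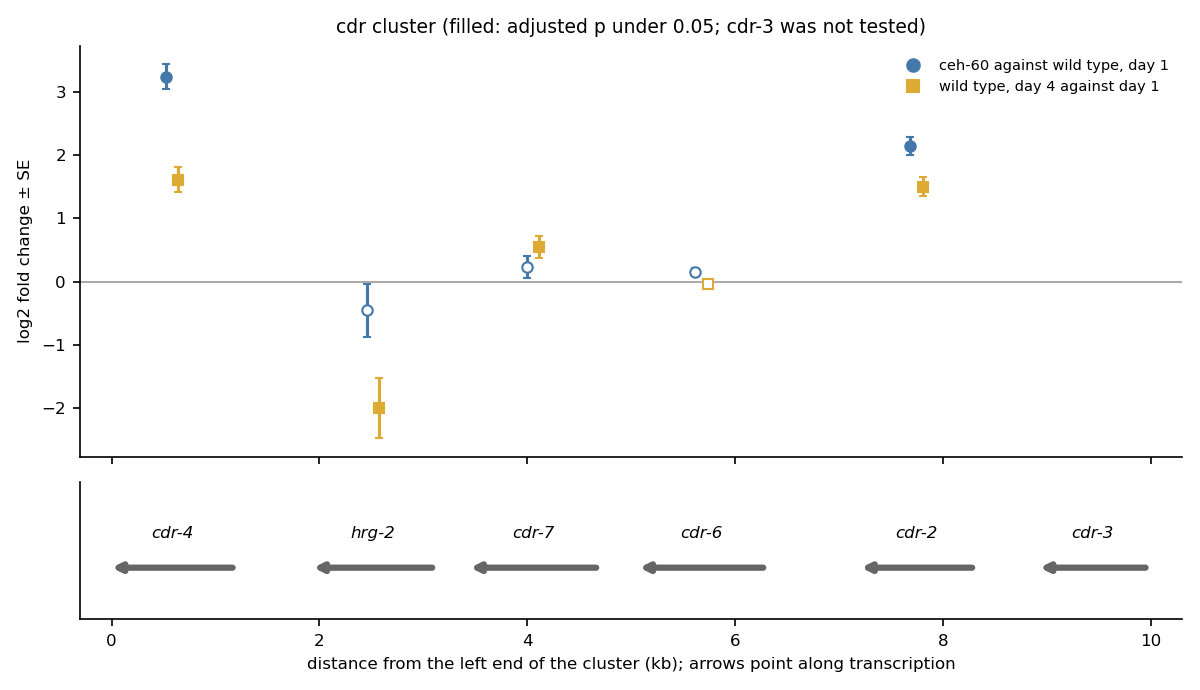
Log2 fold change with SE (upper panel, vertical axis) of each gene of the cdr cluster at its distance in kb from the left end of the cluster (horizontal axis), for the ceh-60 mutant compared with wild type on day 1 (circles) and for wild type on day 4 against day 1 (squares); filled symbols had an adjusted p under 0.05. cdr-4 and cdr-2 rose in both comparisons (3.25 and 2.15, 1.62 and 1.51), while hrg-2, cdr-7 and cdr-6 between them were not called on day 1.

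On day 4 the ceh-60 mutant had more mtl-2 RNA than wild type by about the same log2 fold change as on day 1, while the changes of cdr-2 and cdr-4 were smaller. Again 4 of the 8 tested genes were called, each of them higher, with 24.4% of all genes called in either direction, and the median over the 8 genes was 0.31. mtl-2 stood at 68.6, 55.3 and 47.7 CPM in the mutant on day 4, above every other library of the series, against 15, 14.4 and 11.7 CPM in wild type. Its log2 fold change was 2.08 ± 0.14 (adjusted p = 3.24e-07). mtl-1 stood at 24.6, 19 and 35.7 CPM in the mutant and overlapped wild type (-0.08 ± 0.27, adjusted p = 0.849). cdr-1 was at 1.43, 1.34 and 1.1 CPM in the mutant and at 0.54, 0.668 and 0.478 CPM in wild type, with no overlap (1.2 ± 0.31, adjusted p = 0.014).

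cdr-2 stood at 35.2, 31.9 and 32.2 CPM in the mutant on day 4, above each wild-type library, with a log2 fold change of 0.41 ± 0.13 (adjusted p = 0.0341). This call was lost without wild-type library 1 (adjusted p = 0.137) and without mutant library 1 (0.104), 2 (0.0623) or 3 (0.0638). cdr-4 stood at 66.8, 39.4 and 50.6 CPM and overlapped wild type. Its log2 fold change of 0.43 ± 0.17 did not pass (adjusted p = 0.088), but it passed with the replicate number as a block (0.42 ± 0.14, adjusted p = 0.0458), with no filter on low counts (adjusted p = 0.00527) and without mutant library 2 (0.57, adjusted p = 0.0265). cdr-6 was higher by 0.22 ± 0.06 (adjusted p = 0.0174), a call that was lost without wild-type library 1 (0.101) or 2 (0.056) or without mutant library 1 (0.0778) or 3 (0.0779), and with no filter (0.0703). cdr-7 (-0.21 ± 0.17) and hrg-2 (0.11 ± 0.55) did not pass.

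The difference between the ages was tested directly. The effect of ceh-60 loss was smaller on day 4 for 2 of the 8 genes, where 4.04% of all genes were called for such a difference in either direction. For cdr-4 the difference was -2.81 ± 0.26 on the log2 scale (adjusted p = 6.73e-05) and for cdr-2 it was -1.73 ± 0.19 (adjusted p = 0.000258). For mtl-2 the difference was -0.08 ± 0.24 (adjusted p = 0.908), and cdr-1 gave -0.66 ± 0.45 (adjusted p = 0.5).

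From day 1 to day 4 within the ceh-60 mutant 2 of the 8 tested genes rose and 2 fell, against 52.6% of all genes called in either direction. mtl-1 rose from 24 counts in all to 2175, a ratio of 77 with an exact binomial 95% interval of 51.6 to 120, and its fitted log2 fold change was 6.26 ± 0.45. mtl-2 rose by 2.45 ± 0.15 on the log2 scale (adjusted p = 4.49e-08). cdr-4 went the other way than in wild type and fell by 1.2 on the log2 scale, with SE 0.17 (adjusted p = 6.2e-05), and its ages did not overlap. cdr-2 gave -0.23 ± 0.13 (adjusted p = 0.148) and passed with no filter (0.0349). hrg-2 fell by 1.44 on the log2 scale, with SE 0.49 (adjusted p = 0.0248), from 38 counts in all to 16. That call was lost without mutant library 3 of day 1 (-1.23, adjusted p = 0.0975) and without library 1 (-0.99, 0.0634) or 2 (-1.5, 0.0583) of day 4 and in a fit of only these groups (0.0643), and the value was -2.21 without library 3 of day 4. cdr-1 gave -0.55 ± 0.28 and was called without mutant library 2 of day 1 (-0.83, adjusted p = 0.0119).

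Markers of several tissues moved in these comparisons too. Of 11 intestine markers, 9 were higher and none lower in the ceh-60 mutant on day 1, when their summed level was 898 to 1152 CPM in wild type and 1529 to 2211 CPM in the mutant, and 10 were higher on day 4 (321 to 329 against 634 to 685 CPM). With age in wild type 9 of the 11 fell and 1 rose. All 6 body wall muscle markers were higher in the mutant on day 1 (1089 to 1525 against 1754 to 2473 CPM), and all 6 fell with age. On day 4 none of the 6 was called in the mutant. Of 5 tested pharynx markers 3 were higher in the mutant on each day, with a median log2 fold change of 1.45 on day 1 and 1.44 on day 4, and 3 of 6 neuron markers were higher on day 1 and 1 on day 4. The summed pharynx level was 6.7 to 11 CPM in wild type and 13.1 to 18.9 CPM in the mutant on day 1. Of the germ line, oocyte, sperm and embryo markers none was higher in the mutant on either day. Of 7 germ line markers 2 were lower on day 1 and 1 on day 4, and 1 of 6 oocyte markers was lower on each day. Of 3 tested sperm markers 1 was lower on day 4. No intestine or body wall muscle marker was at 0 in any group. Of 5 tested hypodermis markers, 2 were higher in the mutant on day 1, and 3 fell with age in wild type, from a summed level of 413 to 663 CPM to one of 50.8 to 75.4 CPM. In wild type, 4 of 7 germ line markers rose with age and 2 fell, and 3 of 6 neuron markers rose and 1 fell. Of 4 tested embryo markers 1 rose and 2 fell there, 1 of 6 oocyte markers rose, and 1 of 5 pharynx markers fell. No sperm marker was called. Of all genes, 54.8% were called with age in wild type and 52.6% in the ceh-60 mutant. With age in the ceh-60 mutant 9 of the 11 intestine markers fell and 2 rose, and 4 of 5 hypodermis markers fell and 1 rose. All 6 body wall muscle and all 3 tested sperm markers fell there. Of 7 germ line markers 3 rose and 2 fell, of 6 neuron markers 2 rose and 2 fell, and of 4 embryo markers 1 rose and 2 fell. In the pharynx and oocyte lists 1 marker each rose and none fell. The part of tissue content in the differences of mtl-2, cdr-1, cdr-2, cdr-4 and hrg-2 was not tested.

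**Figure D3:**
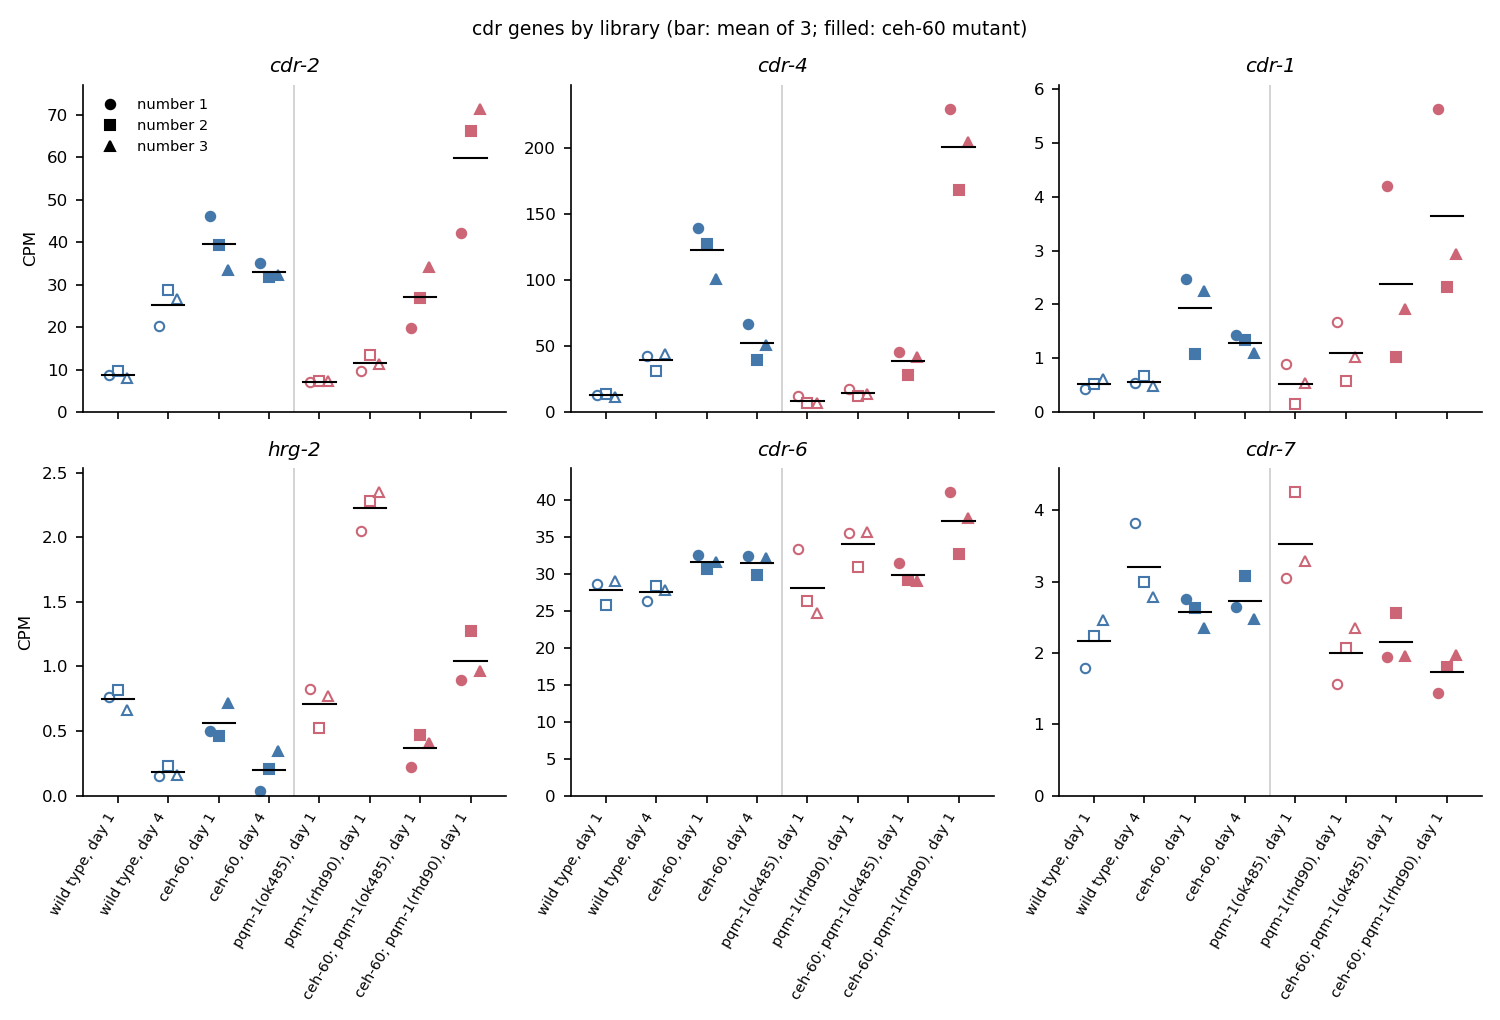
Level of 6 cdr genes in CPM (vertical axes, linear, each from 0 with its own scale) in each library of the 8 groups (horizontal axis); symbols give the replicate number, bars the mean of 3 libraries, filled symbols ceh-60 mutants, and the grey line separates the tables. cdr-4 was highest in the ceh-60; pqm-1(rhd90) double mutant (168 to 230 CPM) and hrg-2 in pqm-1(rhd90) alone (2.05 to 2.35 CPM), while cdr-6 stayed between 24.7 and 41.1 CPM throughout.

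In both pqm-1 backgrounds cdr-4 and cdr-2 were again higher where ceh-60 was lost. In pqm-1(ok485) cdr-4 stood at 12, 7.12 and 7.19 CPM and rose to 45.5, 28.1 and 42.1 CPM in the double mutant, and cdr-2 rose from 7.05, 7.26 and 7.24 CPM to 19.9, 26.9 and 34.2 CPM. The log2 fold changes were 2.08 ± 0.23 (adjusted p = 8.63e-05) and 1.89 ± 0.23 (adjusted p = 0.000149). These were the only 2 of 8 tested genes called, both higher, against 8.97% of all genes called in either direction. In pqm-1(rhd90) cdr-4 stood at 17.4, 12.4 and 13.4 CPM and rose to 230, 168 and 205 CPM, the highest level of the gene in the series, and cdr-2 rose from 9.59, 13.5 and 11.3 CPM to 42.3, 66.2 and 71.5 CPM. The log2 fold changes were 3.83 ± 0.23 (adjusted p = 3.39e-07), or 14.2-fold, and 2.41 ± 0.22 (adjusted p = 1.16e-05). For neither gene did the groups overlap in either background. Of the 11 intestine markers, 7 were higher and none lower on loss of ceh-60 in pqm-1(ok485), and 9 were higher and none lower in pqm-1(rhd90). In pqm-1(ok485) 1 of 5 pharynx markers was lower, and no other tissue list had a called gene in either background. The part of tissue content in these differences was not tested.

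hrg-2 was called as lower on loss of ceh-60 in pqm-1(rhd90). It stood at 2.05, 2.28 and 2.35 CPM there and at 0.893, 1.27 and 0.962 CPM when ceh-60 was lost as well, a log2 fold change of -1.08 ± 0.26 (adjusted p = 0.0167) with no overlap. So 2 of 8 tested genes were higher and 1 lower, with 11.9% of all genes called in either direction. The hrg-2 call was lost without pqm-1(rhd90) library 2 (adjusted p = 0.0509) or 3 (0.0718) and without double mutant library 1 (0.0828) or 3 (0.0733). In pqm-1(ok485) the hrg-2 value was -0.98 ± 0.32 and did not pass (adjusted p = 0.0807).

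**Figure D4:**
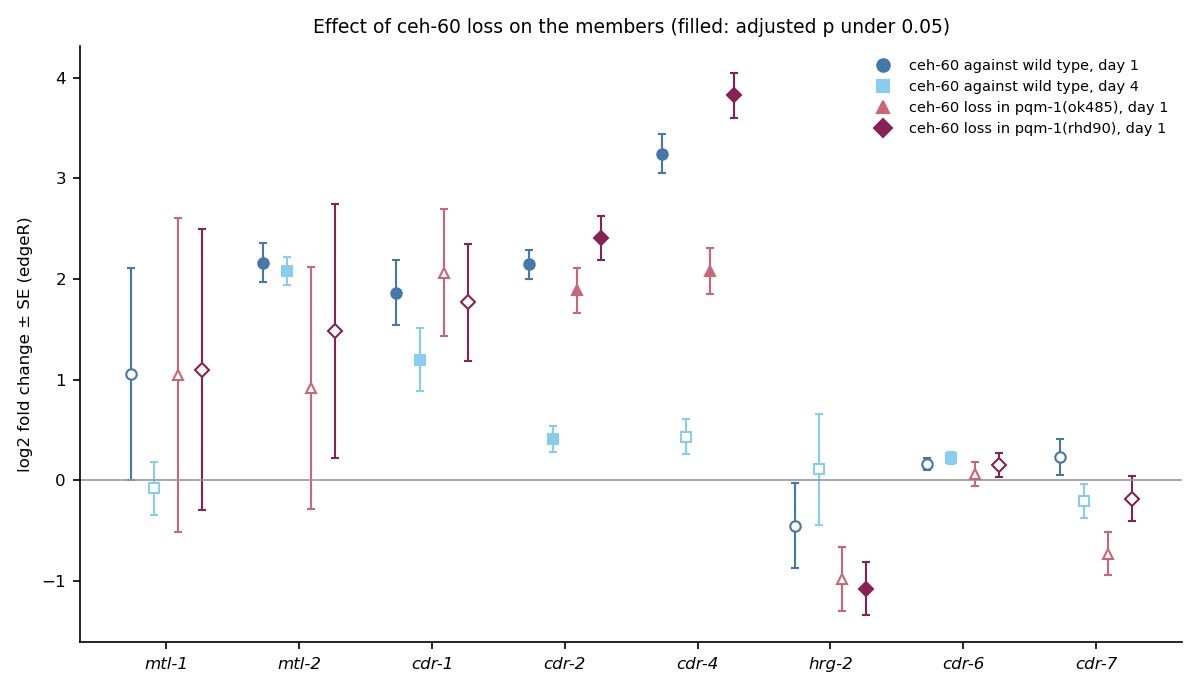
Log2 fold change with SE (vertical axis) for loss of ceh-60 in wild type on day 1 and day 4 and in each pqm-1 mutant on day 1, for the 8 tested genes (horizontal axis); filled symbols had an adjusted p under 0.05. cdr-4 and cdr-2 were called in each of the 3 day 1 backgrounds, and the SE of mtl-2 was 1.21 and 1.26 in the pqm-1 backgrounds against 0.19 in wild type.

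The metallothionein genes and cdr-1 were split by replicate number in the second table. mtl-2 stood at 13.5, 0.382 and 0.659 CPM in pqm-1(ok485), at 9.27, 1.17 and 2.19 CPM in pqm-1(rhd90), at 25.2, 2.1 and 3.05 CPM in the ok485 double mutant and at 25.8, 2.54 and 5.73 CPM in the rhd90 double mutant. Library 1 was the highest in each of the 4 groups, by 26, 5.53, 9.78 and 6.25 times the mean of the other two. mtl-1 was also highest in library 1 of each group, from low counts: 16, 0 and 1 counts, 20, 3 and 1, 31, 1 and 1, and 60, 0 and 6. cdr-1 and cdr-4 were also highest in library 1 of all 4 groups, by 2.09 to 2.86 times and by 1.23 to 1.67 times, whereas cdr-2 was highest in library 1 of none. Among 8312 genes with a mean of at least 5 CPM in these libraries, mtl-2 ranked 2 by the mean log2(CPM + 1) difference of library 1 from the rest (2.64), behind irg-5 (3.22), an infection response gene. In the first table the same difference was 0.03 for mtl-2.

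Body wall muscle markers moved the other way in these libraries, with a summed level in library 1 of 0.547 to 0.779 times the mean of the other two over the 4 groups. Hypodermis markers were lower in library 1 of all 4 groups as well, at 0.724 to 0.907 times, and intestine markers were too, at 0.904 to 0.982 times. Embryo markers were higher in library 1 of all 4 groups, at 1.14 to 2.49 times, the same direction as mtl-1, mtl-2 and cdr-1. Their summed level was only 1.39 to 4.04 CPM in these groups, so these ratios rest on few counts. Neuron markers stood at 1.01 to 1.07 times, pharynx markers at 0.787 to 1.47 times, germ line markers at 0.822 to 0.986 times, oocyte markers at 0.777 to 1.0 times and sperm markers at 0.307 to 1.18 times. The labels give the number and nothing on what it stands for, and the part of tissue content or of the number itself in the mtl-1, mtl-2 and cdr-1 levels was not tested.

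With all libraries and no block, mtl-2 did not pass on loss of ceh-60 in pqm-1(ok485) (0.92 ± 1.21, adjusted p = 0.679) or in pqm-1(rhd90) (1.48 ± 1.26, adjusted p = 0.54). Same-numbered libraries deviated together in both comparisons, and with the replicate number as a block mtl-2 was higher in both, by 1.11 ± 0.28 (adjusted p = 0.0136) and by 1.47 ± 0.30 (adjusted p = 0.00228). Double mutant exceeded single mutant at each of the 3 numbers in both backgrounds. Without the 4 libraries numbered 1, a choice made after seeing the data, the values were 2.31 ± 0.53 (adjusted p = 0.0208) and 1.33 ± 0.42 (adjusted p = 0.0752). mtl-1 did not pass the filter on low counts in the remaining libraries.

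cdr-1 gave 2.06 ± 0.63 (adjusted p = 0.0629) in pqm-1(ok485) and 1.77 ± 0.58 (adjusted p = 0.0738) in pqm-1(rhd90), with no overlap in either. With the block it was higher in both (adjusted p = 3.72e-05 and 4.1e-05), and without the libraries numbered 1 it was higher in both as well (adjusted p = 0.037 and 0.0292). DESeq2 called it in both (adjusted p = 0.00755 and 0.0296). In pqm-1(ok485) it was also called without pqm-1(ok485) library 1 (adjusted p = 0.0487) or double mutant library 2 (0.0365). cdr-7 gave -0.73 ± 0.21 in pqm-1(ok485), with no overlap (adjusted p = 0.0505), and was lower with the block (-0.74 ± 0.18, adjusted p = 0.0101), without pqm-1(ok485) library 1 (0.042) and without double mutant library 2 (0.0417). The log2 fold changes of mtl-1 were 1.04 ± 1.56 and 1.1 ± 1.4 and did not pass (adjusted p = 0.72 and 0.704), from 0 to 60 counts per library.

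The 2 pqm-1 alleles differed in hrg-2. It stood at 0.828, 0.525 and 0.768 CPM in pqm-1(ok485), below each pqm-1(rhd90) library, and was higher in pqm-1(rhd90) by 1.61 ± 0.27 (adjusted p = 0.00634). cdr-7 stood at 3.05, 4.25 and 3.29 CPM in pqm-1(ok485) and at 1.56, 2.07 and 2.35 CPM in pqm-1(rhd90), lower by a log2 fold change of -0.85 ± 0.22 (adjusted p = 0.0346). These were 1 higher and 1 lower of 8 tested genes, against 7.39% of all genes called in either direction. The cdr-7 call was lost without pqm-1(ok485) library 2 (adjusted p = 0.134) or 3 (0.0599) and without pqm-1(rhd90) library 1 (0.132), 2 (0.0627) or 3 (0.0705). It was also lost in a fit of only these groups (0.073) and without the 4 libraries numbered 1 (0.0549). With the replicate block, for which the numbers deviated together, cdr-1 (1.03 ± 0.30, adjusted p = 0.0302), cdr-2 (0.61 ± 0.15, adjusted p = 0.0104) and cdr-4 (0.67 ± 0.11, adjusted p = 0.000911) were higher in pqm-1(rhd90) too. Without pqm-1(ok485) library 1, cdr-4 (0.99, adjusted p = 0.0277) and cdr-6 (0.40, adjusted p = 0.0218) were called as higher. Without all 4 libraries numbered 1, cdr-2 (0.75, adjusted p = 0.0104), cdr-4 (0.82, adjusted p = 0.0485) and cdr-6 (0.36, adjusted p = 0.0396) were. Of 6 tested hypodermis markers 3 were lower in pqm-1(rhd90), the opposite direction to hrg-2. All 4 tested sperm markers and 1 of 6 neuron markers were lower there too. The part of these tissues was not tested.

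The alleles were also compared where ceh-60 was lost as well. The rhd90 double mutant had more cdr-4, cdr-2 and hrg-2 RNA than the ok485 double mutant, by 2.4 ± 0.20 (adjusted p = 3.61e-05), 1.16 ± 0.20 (adjusted p = 0.00314) and 1.51 ± 0.31 (adjusted p = 0.0068) on the log2 scale. hrg-2 stood at 0.221, 0.466 and 0.407 CPM in the ok485 double mutant. For none of these 3 genes did the double mutants overlap. They were 3 higher and none lower of 8 tested genes, with 14.3% of all genes called in either direction. cdr-6 gave 0.33 ± 0.12 (adjusted p = 0.0797) and was called without rhd90 double mutant library 2 (0.42, adjusted p = 0.0323). All 4 tested sperm markers were higher in the ok485 double mutant, at 20.7 CPM summed on average against 2.24 CPM with no overlap. In the rhd90 double mutant 2 of 6 hypodermis, 1 of 6 body wall muscle and 1 of 7 germ line markers were lower. There 3 of 6 neuron and 2 of 5 pharynx markers were higher, and of 11 intestine markers 2 were higher and 2 lower. The part of tissue content in these differences was not tested.

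Comparisons of pqm-1 mutants with animals that have pqm-1 intact cross the 2 tables, so genotype and table cannot be told apart in them, and they share their day 1 control libraries with the comparisons above. pqm-1(ok485) differed from wild type in cdr-7, which was higher by 0.68 ± 0.20 (adjusted p = 0.011), 1 of 8 tested genes, where 47.7% of all genes were called in either direction. cdr-4 gave -0.53 ± 0.22 (adjusted p = 0.0564) and was lower with the replicate block (-0.56 ± 0.16, adjusted p = 0.0101) and without pqm-1(ok485) library 1 (-0.81, adjusted p = 0.0206). That block joins equal numbers of the 2 tables, and no label tells if these belong together. The deviations of such libraries correlated only at 0.106 to 0.140 here. pqm-1(rhd90) had more hrg-2 (1.54 ± 0.26, adjusted p = 0.000444) and more cdr-6 (0.27 ± 0.09, adjusted p = 0.0392) than wild type, 2 of 8 tested genes, against 28.2% of all genes called in either direction. The cdr-6 call was lost without wild-type library 1 (adjusted p = 0.0689), 2 (0.166) or 3 (0.0795) and without pqm-1(rhd90) library 1 (0.122) or 3 (0.125). mtl-2 did not pass against wild type in either allele (1.11 ± 1.15 in pqm-1(ok485) and 0.81 ± 1.21 in pqm-1(rhd90)). Without the libraries numbered 1 the edgeR value in pqm-1(ok485) was -2.18 (adjusted p = 0.0028). These libraries were left out after seeing mtl-2 highest in them, and only on the pqm-1 side, so no conclusion is drawn from that p-value. Of the 11 intestine markers 10 were higher in each allele than in wild type. In pqm-1(ok485) 6 of 6 hypodermis, 4 of 4 sperm, 4 of 5 pharynx, 4 of 6 body wall muscle and 4 of 6 neuron markers were higher as well, and 4 of 6 oocyte, 3 of 7 germ line and 1 of 6 neuron markers were lower. In pqm-1(rhd90) 3 of 6 hypodermis, 2 of 5 pharynx and 4 of 6 neuron markers were higher, 2 of 6 oocyte, 1 of 7 germ line and 1 of 6 neuron markers were lower, and no sperm or body wall muscle marker was called. The part of tissue content in these differences was not tested.

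Against the ceh-60 single mutant, cdr-4 was lower in the ok485 double mutant by a log2 fold change of -1.67 ± 0.18 (adjusted p = 3.8e-05) and higher in the rhd90 double mutant by 0.72 ± 0.17 (adjusted p = 0.0127). The single mutant's 101 to 140 CPM lay between the 28.1 to 45.5 CPM of the former and the 168 to 230 CPM of the latter, with no overlap. It was the 1 gene called of 8 tested in each, with 14% of all genes called in the first comparison and 9.85% in the second, in either direction. The second call was lost without ceh-60 library 3 (adjusted p = 0.0709) and without rhd90 double mutant library 1 (0.0753) or 3 (0.0509). Of the tissue markers, 4 of 4 for sperm, 4 of 6 for hypodermis and 4 of 11 for intestine were higher in the ok485 double mutant than in the single mutant, and 1 of 6 for neurons was lower. In the rhd90 double mutant 5 of 11 intestine markers and 1 of 6 neuron markers were higher and none of the other lists had a call. The part of tissue content in the cdr-4 differences was not tested. cdr-2 gave -0.55 ± 0.19 and 0.60 ± 0.19 and did not pass (adjusted p = 0.0655 and 0.0514). It was called as lower without ok485 double mutant library 3 (-0.76, adjusted p = 0.0286), and as higher without ceh-60 library 1 (0.73, 0.0424) or rhd90 double mutant library 1 (0.81, 0.0131). hrg-2 was higher by 0.90 ± 0.28 in the rhd90 double mutant, with no overlap (adjusted p = 0.0503), and passed with RLE scaling (0.048). cdr-6 was called as higher there without library 2 of that group (0.32, adjusted p = 0.0338). mtl-2 gave -0.09 ± 0.98 and 0.11 ± 0.97 and did not pass. Without the libraries numbered 1 the edgeR values were -2.05 (adjusted p = 0.000593) and -1.34 (adjusted p = 0.0125). That choice was made after seeing mtl-2 highest in those libraries, and it drops them from the double mutants only. It therefore lowers mtl-2 on that side by its design, and no conclusion is drawn from these p-values.

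The effect of ceh-60 loss on cdr-4 was smaller in pqm-1(ok485) than with pqm-1 intact, by -1.14 ± 0.28 on the log2 scale (adjusted p = 0.0309), the 1 gene called of 8 tested, where 4.43% of all genes were called in either direction. That call was lost without wild-type library 2 (adjusted p = 0.0583) or 3 (0.0757), ceh-60 library 1 (0.0926), pqm-1(ok485) library 1 (0.125) or ok485 double mutant library 3 (0.0585), and without the 4 libraries numbered 1 (-0.98, 0.0704). cdr-7 gave -0.94 ± 0.28 (adjusted p = 0.0692) and was called without pqm-1(ok485) library 1 (-1.08, adjusted p = 0.0421). In pqm-1(rhd90) edgeR called 0 of the 8 genes for the same difference and 0 passed at an unadjusted p under 0.05, where 0.272% of all genes were called. The cdr-4 value there was 0.56 ± 0.27 (adjusted p = 0.587), and DESeq2 called 0 of the members it tested as well.

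Over the 8 groups, the order of mean levels differed between the genes. cdr-4 ran from 8.75 ± 2.77 CPM (SD, n = 3) in pqm-1(ok485) through 12.7 ± 0.87 in wild type and 14.4 ± 2.66 in pqm-1(rhd90) on day 1, 38.6 ± 9.23 in the ok485 double mutant, 39.4 ± 6.96 in wild type and 52.2 ± 13.8 in ceh-60 on day 4, to 123 ± 19.7 in ceh-60 and 201 ± 31.2 in the rhd90 double mutant on day 1. Neighbours in that order overlapped among the lowest 3 groups and among the 3 in the middle, and the highest 2 were each clear of the next. mtl-1 was divided by age, since the 6 day 1 groups lay between 0.159 and 0.868 CPM on average and overlapped their neighbours, and the day 4 groups stood at 26.4 ± 8.51 in ceh-60 and 28.4 ± 11.2 in wild type. mtl-2 was highest in ceh-60 on day 4, at 57.2 ± 10.6 CPM, clear of wild type of that age at 13.7 ± 1.79 CPM, and all lower neighbours overlapped. cdr-6 ran only from 27.5 ± 1.07 CPM in wild type on day 4 to 37.2 ± 4.17 CPM in the rhd90 double mutant. cdr-7 ran from 1.74 ± 0.272 CPM in the rhd90 double mutant to 3.53 ± 0.636 CPM in pqm-1(ok485).

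Per kilobase of exon, the levels of different genes can be set side by side. In wild type on day 1 cdr-6 was the most abundant, at 30.9 ± 2 CPM per kilobase, followed by cdr-4 at 14.6 ± 1, cdr-2 at 9.91 ± 1.03, mtl-2 at 6.79 ± 1.33 and cdr-7 at 2.14 ± 0.339. hrg-2, cdr-1 and mtl-1 stood under 1 CPM per kilobase on average. In wild type on day 4 mtl-1 came first, at 76.1 ± 30.1 CPM per kilobase, and on day 4 of the ceh-60 mutant mtl-2 did, at 165 ± 30.6. In the ceh-60 mutant on day 1 cdr-4 led, at 141 ± 22.6 CPM per kilobase. cdr-3 was nearly absent everywhere: it had 14 counts over all 24 libraries, at most 3 in one, and in the 14 libraries with no count a count of 0 allows up to 0.11 to 0.162 CPM (3 counts, counting error only).

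As a description, the genes most like each other among the 9 were cdr-2 and cdr-4, whose log2(CPM + 1) had a Pearson correlation of 0.927 over the 12 libraries of the first table and of 0.940 over the 12 of the second. mtl-1 and mtl-2 gave 0.748 and 0.893. Libraries fall into groups, and those of both tables share a single scaling, so these values describe the group pattern. Among 8110 genes with at least 5 CPM on average in the first table, cdr-4 was most like Y58A7A.3 (0.986, and 0.978 in the second table), pals-24 (0.979 and 0.967) and F53B2.8 (0.968 and 0.970). cdr-2 was most like spp-1 (0.978 and 0.771), F53B2.8 (0.978 and 0.909) and Y94H6A.10 (0.973 and 0.935). mtl-1 was most like ZC443.3 (0.997), T19H5.4 (0.993) and ubc-8 (0.993), which gave only 0.339, 0.217 and 0.411 in the second table. mtl-2 was most like F41E6.5 (0.983 and 0.391), tpra-1 (0.980 and 0.452) and daao-1 (0.977 and 0.650), and cdr-1 like C49C3.10 (0.951 and 0.510), C49C8.5 (0.943 and 0.758) and tre-4 (0.943 and 0.863). cdr-6 was most like B0303.11 (0.943 and -0.60), ceeh-1 (0.942 and 0.762) and acp-5 (0.937 and 0.440), and cdr-7 like cdk-9 (0.910 and -0.07), C29H12.2 (0.903 and -0.31) and meg-1 (0.893 and -0.53).

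Other genes of metal handling were measured in the ceh-60 mutant on day 1, where 25.5% of all genes were called in either direction. Of 10 tested genes known for tolerance of cadmium or arsenic, 3 were higher and none lower, among them pgp-1 (2.19 ± 0.23) and pgp-3 (0.76 ± 0.15), which encode ABC transporters. The list holds no member of the metallothionein or cdr genes, and its median was 0.05 against -0.03 over all genes. numr-1, which is induced by cadmium, had no count in any group, and numr-2 of the same list was not found by its symbol. Whether reads could be assigned to numr-1 was not tested, so its lack of counts need not mean a lack of RNA. Of 18 tested zinc transporter genes 2 were higher and 3 lower. The shares called in both of these lists were near that of all genes. The 2 higher were cdf-2 (1.61 ± 0.22), which stores zinc in gut granules, and zipt-2.1 (0.64 ± 0.09), and zipt-7.1 (-0.19 ± 0.06) and sur-7 (-0.20 ± 0.07) were among the lower. Of 15 tested genes of iron, copper and heme handling, a list that also holds hrg-2, 7 were higher and none lower, with ferritin ftn-2 at 1.16 ± 0.09 and the iron exporter fpn-1.1 at 0.58 ± 0.06.

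On day 4, when 24.4% of all genes were called, 1 of the 10 tolerance genes was higher, mrp-1 (0.27 ± 0.08), and 9 of the 15 iron, copper and heme genes were, among them hrg-7 (1.58 ± 0.14) and fpn-1.1 (0.69 ± 0.06). cdf-2 (1.26 ± 0.22) and zipt-2.1 (0.55 ± 0.09) were the 2 zinc transporter genes higher on day 4, and 3 were lower. With age in wild type ferritin ftn-1 rose by 5.41 ± 0.43 and zipt-2.3 fell by 1.90 on the log2 scale. With age in wild type 54.8% of all genes were called, and the shares called in these lists were near it. The counts with age were 3 higher and 2 lower of 10 tolerance genes, 5 and 6 of 18 zinc transporter genes, and 3 and 6 of 15 iron, copper and heme genes. pgp-1 was also higher on loss of ceh-60 in pqm-1(ok485) (1.72 ± 0.11) and in pqm-1(rhd90) (1.78 ± 0.11).

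Genes for factors known to act on metallothionein, intestinal or stress promoters were measured as well. In the ceh-60 mutant on day 1, 3 of 11 were higher and none lower, a share near the 25.5% of all genes called, among them pqm-1 itself (1.42 ± 0.07) and hizr-1 (0.70 ± 0.16), the zinc-sensing nuclear receptor. On day 4 it was 4 of 11, and with age in wild type 4 rose, among them pqm-1 (1.23 ± 0.07) and the insulin receptor gene daf-2 (0.47 ± 0.05), and 2 fell, elt-3 (-1.29 ± 0.15) and elt-2 (-0.41 ± 0.12), a share near the 54.8% of all genes called. Of 15 tested genes often used as targets of DAF-16 beside mtl-1, 10 rose and none fell with age in wild type, with dod-3 at 4.27 ± 0.44. In the ceh-60 mutant 6 were higher and none lower on day 1, with ctl-2, a catalase gene, at 1.1 ± 0.07. On day 4, when 24.4% of all genes were called, 4 were higher and 1 lower. With age in the mutant, where 52.6% of all genes were called, 8 rose and 2 fell. Their medians were 0.93 with age in wild type and 0.71 in the mutant, against 0.02 and 0.04 over all genes. For ceh-60 loss they were 0.58 on day 1 and 0.15 on day 4, against -0.03 and -0.0001.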

How the data were processed

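The authors deposited 2 tables of raw read counts per gene, made with featureCounts 1.5.2 on exons of the WormBase WS260 annotation, per the file headers, after alignment with STAR 2.5.4, per the submitters' processing notes. The headers give no strand option. Both tables hold the same 46778 genes and 12 libraries each. Symbols came from the reference table of gene names for 43818 identifiers. The 9 genes and the gene lists were chosen with earlier results of these data known. Tests were edgeR 4.0.16 quasi-likelihood fits in R 4.3.3 (filterByExpr by group, TMM scaling, Benjamini-Hochberg adjustment over all genes tested, 15 comparisons): one fit of the 12 libraries of the first table (13137 genes), one of the second (13324) and one of the 18 libraries of day 1 (13589) for comparisons across tables. SEs are the log2 fold change over the square root of F. The scripts were tested on simulated data. Alternatives were DESeq2 1.42.0, RLE scaling, no filter, only the compared groups, a replicate block, a minimum of 2-fold, each library left out and, added after seeing the data, the second table without its libraries numbered 1. Levels between genes are per kilobase of deposited exon length. The genes named from each list were up to 2 rising and 2 falling with the smallest p; those named by likeness had the highest correlation of log2(CPM + 1). Correlations of the deviations of same-numbered libraries from their group means were over 0.1 at all 3 numbers for ceh-60 against wild type on each day, for ceh-60 loss in each pqm-1 mutant, between the pqm-1 alleles with ceh-60 intact and for pqm-1(ok485) against wild type, and were not at every number in the other comparisons; the labels give the number only. Within groups, pairs of libraries differed by at least 3.74 times the sampling noise (chi-square per degree of freedom). Sequences were not used here.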

Additional observations from a re-analysis of the deposited data

Results flagged for a closer look

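Tests of a difference between 2 effects of ceh-60 loss passed for 2 genes. The effect on cdr-2 was smaller on day 4 than on day 1, with a difference of -1.73 on the log2 scale, from 2.15 ± 0.14 to 0.41 ± 0.13. The effect on cdr-4 was smaller on day 4 by -2.81, from 3.25 ± 0.20 to 0.43 ± 0.17. Both differences kept their call in each alternative run. In cdr-4 the effect was also smaller in pqm-1(ok485) than with pqm-1 intact, by -1.14, a comparison in which genotype and table cannot be told apart and whose call was lost in 5 of the 12 fits that left out 1 library.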

How the results depend on the processing

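Of 120 values, the call and direction were kept in 118 with RLE scaling, 113 with a 2-fold minimum, 111 with no filter, 101 with the replicate block and 97 of 102 in fits of only the compared groups; DESeq2 kept 107 of 113, leave-one-out 814 of 864, and leaving out the libraries numbered 1 of the second table, chosen after seeing the data, 55 of 70. With a 2-fold minimum the members called were 2 of 4 for ceh-60 loss on day 4, 1 of 2 between the pqm-1 alleles, 0 of 1 for pqm-1(ok485) against wild type, 1 of 2 for pqm-1(rhd90) against wild type and 0 of 1 for the rhd90 double mutant against the ceh-60 mutant. DESeq2 and the fit with no filter each called 2 in place of 1 for pqm-1(ok485) against wild type and for each double mutant against the ceh-60 mutant, and RLE scaling called 3 for the rhd90 double mutant. With the replicate block, 5 were called for ceh-60 loss in pqm-1(ok485) (2 without it), 5 in pqm-1(rhd90) (3), 5 between the pqm-1 alleles (2), 5 between the double mutants (3), 2 for pqm-1(ok485) against wild type (1), 2 and 6 for the ok485 and rhd90 double mutants against the ceh-60 mutant (1 each), and 2 for the difference in the effect of ceh-60 loss between pqm-1(ok485) and intact pqm-1 (1). Same-numbered libraries were not paired in the double mutant comparisons or in that difference. Without the libraries numbered 1, 4 were called for ceh-60 loss in pqm-1(ok485) and 4 between the alleles, 3 for pqm-1(ok485) against wild type, 3 for each double mutant against the ceh-60 mutant, and 0 for the difference in pqm-1(ok485), and mtl-2 reversed to -2.18 in pqm-1(ok485) against wild type and -1.34 in the rhd90 double mutant against the ceh-60 mutant. Both reversals follow from leaving out the libraries with the most mtl-2 on the second-table side only. Leaving out 1 library of the groups compared gave 2 to 4 members for ceh-60 loss on day 4 and in pqm-1(ok485), 1 to 4 between the alleles, 1 to 2 for each pqm-1 allele against wild type and for the ok485 double mutant, 0 to 2 for the rhd90 double mutant against the ceh-60 mutant, 0 to 1 for the difference in pqm-1(ok485) and 4 throughout for ceh-60 loss on day 1. Among all genes, the 2-fold minimum left 15 to 1790 in the 15 comparisons, where 37 to 7193 were called without it. Over the fits without 1 library the count ran from 1899 to 3482 for ceh-60 loss on day 1 (3354 with all libraries), 306 to 567 for its difference between ages (531, and 905 with no filter), 738 to 1106 for ceh-60 loss in pqm-1(ok485) (1195, and 2160 with the block), 187 to 2186 between the alleles (984, with 2069 under the block, 1490 without the libraries numbered 1 and 616 in only these groups) and 947 to 2123 between the double mutants (1900, and 3274 with the block). It ran from 680 to 1865 for the ok485 double mutant (1898) and 473 to 1498 for the rhd90 double mutant (1338) against the ceh-60 mutant, 220 to 1044 for the difference in pqm-1(ok485) (602, with 943 under the block, 920 by DESeq2 and 388 in only these groups), and 14 to 69 for that in pqm-1(rhd90) (37, with 61 under the block, 101 by DESeq2 and 151 with no filter). pqm-1(ok485) against wild type gave 6480, and 4193 in only these groups. The cause was not tested. mtl-1 on day 1, cdr-3 and hrg-2 had at most 60 counts per library, which limits their precision.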
